A study of Triticum aestivum with 15 samples.

Results

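Droughted flag leaves of the winter wheat cultivar TAM112 were compared with those of TAM111. The comparison used the 8 dry libraries of the 15 in the series, 4 of TAM112 and 4 of TAM111, with 2 libraries of each cultivar at heading (HD, day 79 counted from transplanting) and 2 midway through grain filling (GF, day 100). Members were chosen by their labels: all libraries labelled dry were used, and none was picked by a measured value. Earlier results of these data were known when the comparison was chosen. Pots of the dry treatment were held at around 50% gravimetric water content from 50 days after transplanting, and pots of the wet treatment at 90%. Each library was made from flag leaves of 4 plants of 1 cultivar pooled as 1 sample. The 7 wet libraries, 4 of TAM112 and 3 of TAM111, were read as an independent set. Both cultivars are inbred lines related by pedigree, and TAM112 carries the 1AL.1RS translocation, in which the short arm of wheat chromosome 1A is replaced by a rye arm. Values are FPKM, fragment counts already scaled to transcript length and to the mapped fragments of the library.

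Bread wheat is a hexaploid with A, B and D subgenomes, so that most genes exist as similar copies on several chromosomes. In a drying leaf, abscisic acid signalling leads to the accumulation of protective proteins such as dehydrins and other late embryogenesis abundant (LEA) proteins, of compatible solutes such as proline and raffinose family sugars, and of heat shock proteins that hold unfolding proteins. Plants also carry large families of receptor kinases and nucleotide-binding leucine-rich repeat proteins that detect pathogens, and cultivars often differ in which members of these families they hold.

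FPKM was summed over each locus of the merged transcript catalogue, and 38121 loci that carried a gene name and reached an FPKM of 1 in 2 or more of the 8 dry libraries were tested. Dry libraries rested on 2201757 to 2642220 fragments, as implied by the confidence bounds of the FPKM values. This sum is far below the read numbers that the study gives, so it is not the sequencing depth, and it serves only to show how precise single values are. The 10 leaf marker loci summed to 641 to 1490 FPKM in TAM112 and to 542 to 1099 FPKM in TAM111, and the 3 flower or pollen loci summed to 0.314 to 10.1 FPKM in TAM112 and to 1.66 to 6.65 FPKM in TAM111. At 374 loci on the first 200000000 bases of the first part of chromosome 1A, which were kept out of the tests because of the rye arm, the median was 0.360 to 0.431 FPKM in the TAM112 dry libraries. It was 3.71 to 4.84 FPKM in 3 of the TAM111 dry libraries and 1.83 FPKM in TAM111 HD replicate 1. Pairs of replicates correlated across the tested loci with r between 0.880 and 0.889, a description across loci that share their libraries.

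One library stood apart from its label. Loci expressed in wet leaves of one cultivar only were taken from 6 wet libraries, as FPKM of at least 1 in all libraries of one cultivar and at most 0.1 in all libraries of the other, a set defined after the data were seen. The 125 loci found only in TAM112 reached an FPKM of 1 at 83.2% to 87.2% of loci in the TAM112 dry libraries and at 4.8% to 8% in 3 of the TAM111 dry libraries. In the library labelled TAM111 HD dry replicate 1 the share was 72.8%, with a median of 1.80 FPKM, against medians of 3.61 to 5.08 FPKM in the TAM112 dry libraries and 0 in the other 3 TAM111 libraries. The same library held 40.1% of the 157 loci found only in TAM111, where the TAM112 dry libraries held 7.01% to 12.7% and the other TAM111 dry libraries 61.8% to 66.2%. It carried transcripts of both sets, at intermediate levels. The wet library left out of this definition, TAM111 GF wet replicate 1, carried 69.6% and 59.2% of the 2 sets. With all 7 wet libraries in the definition, as few as 16 loci were found only in TAM112, and 43.8% of them reached an FPKM of 1 in TAM111 HD dry replicate 1. Each main count is given with and without that library, and how it came to hold both sets was not tested.

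**Figure D1:**
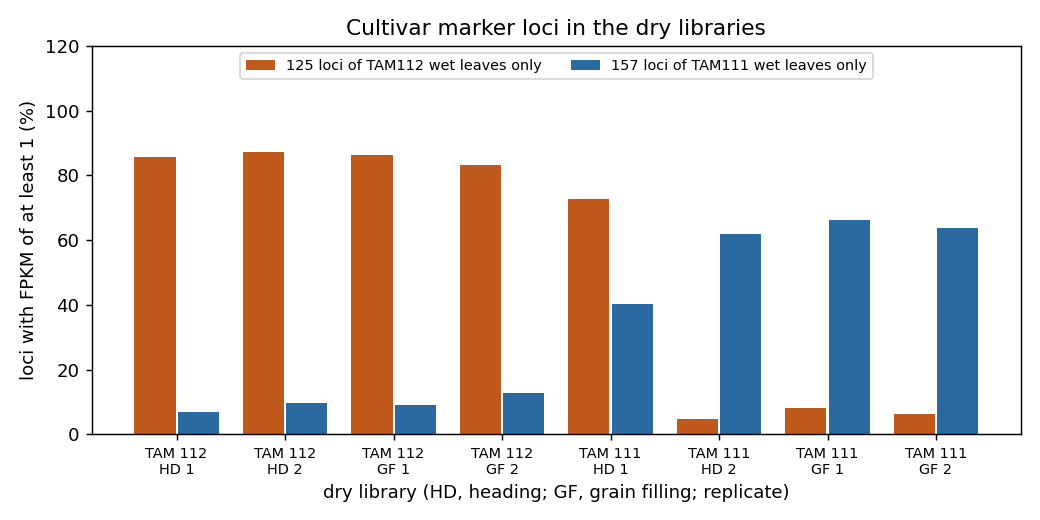
Share of cultivar marker loci with an FPKM of at least 1 (percent, vertical axis) in each of the 8 dry libraries (horizontal axis). Orange bars are the 125 loci expressed only in TAM112 wet leaves and blue bars the 157 loci expressed only in TAM111 wet leaves. TAM111 HD replicate 1 carried 72.8% of the first set and 40.1% of the second, whereas the other libraries carried mainly the set of their own cultivar.

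Between the cultivars, 238 of 38121 loci were called in dry leaves at an adjusted p below 0.05 and a difference of at least 2-fold on the log2(FPKM + 1) scale, which is 0.624% of the loci tested. Of these, 74 were higher in TAM112 (0.194%) and 164 were lower (0.430%). The loci called higher had a median of 7.57 FPKM in TAM112 and 0.722 FPKM in TAM111, and 10 of them were listed at 0 in all 4 TAM111 libraries. The loci called lower had a median of 0.288 FPKM in TAM112 and 7.32 FPKM in TAM111, and 46 of them were listed at 0 in all 4 TAM112 libraries. A locus listed at 0 that was not transcribed and one that is missing or diverged from the reference cannot be told apart in these data, nor can fewer cells of a type and less RNA per cell. The 4 TAM112 and the 4 TAM111 libraries did not overlap at 233 of the called loci, and at 1806 of all loci tested (4.74%). An unadjusted p below 0.05 was found at 4402 loci, and the median difference over all loci was 0.01.

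The number of calls depended on single libraries. Without TAM111 HD replicate 1, 524 loci were called, 252 higher and 272 lower, and 218 of the 238 were among them. Without any other library the number was smaller: 68 without TAM112 HD replicate 1, 145 without TAM112 HD replicate 2, 57 without TAM112 GF replicate 1, 45 without TAM112 GF replicate 2, 83 without TAM111 HD replicate 2, 59 without TAM111 GF replicate 1 and 56 without TAM111 GF replicate 2. Which loci were called also depended on how rows were assigned to loci, because rows that carry the reference gene name held 25.8% to 29.1% of the FPKM on loci in the dry libraries. With those rows alone, 49 loci were called, 12 of them among the 238. With the replicate number as a block, 30 loci were called, all among the 238.

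Of the 546 tested loci that the product tables of the study name, 2 were called higher in TAM112 and 8 lower, where 0.194% of all loci were called higher and 0.430% lower. These tables list loci that the study selected on dry against wet leaves of the same libraries. At 9 of the 10 loci the cultivars did not overlap, and these are given first by role.

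Among signalling proteins, L_111237 (TraesCS7B01G445300 and TraesCS7B01G445400, bases 255371981 to 255433959 of 7B_part2) is named a serine/threonine-protein kinase PBS1-like. PBS1 of Arabidopsis is a cytoplasmic kinase whose cleavage by a bacterial protease is sensed by a resistance protein. The locus had 16.7 and 13.1 FPKM at HD and 8.29 and 6.23 FPKM at GF in TAM112, against 2.93 and 0.853 FPKM at HD and 1.21 and 1.17 FPKM at GF in TAM111. All TAM112 libraries were above all TAM111 libraries, and TAM111 HD replicate 1 was the highest of its cultivar. The difference was 2.23 ± 0.28 (SE, log2(FPKM + 1), limma adjusted p = 0.0191). On rows with the reference name alone it was -0.41 (adjusted p = 0.882).

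L_005647 (TraesCS1B01G140300, 1B_part1) encodes a ubiquitin-conjugating enzyme E2, a carrier of ubiquitin on its way to target proteins. It had 14.6 and 8.24 FPKM at HD and 13.0 and 10.97 FPKM at GF in TAM112, against 4.14 and 1.73 FPKM at HD and 2.12 and 1.33 FPKM at GF in TAM111. The groups did not overlap (1.97 ± 0.29, adjusted p = 0.0327). In contrast, L_059980 (TraesCS4B01G126100, 4B_part1), a leucine-rich repeat receptor-like kinase, was listed at 0 in all TAM112 libraries and had 3.35, 1.97, 6.13 and 2.16 FPKM in TAM111. These TAM111 values rested on 0.931 to 5.88 fragments each, and in wet leaves the locus was listed at 0 in all but 1 library.

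Of 18 disease resistance products tested, 3 were called, all lower, and 10 had a positive difference. Over all 38121 loci tested, 0.624% were called, 0.430% were called lower, and 19609 had a positive difference. The calls of this list changed without TAM111 HD replicate 1, as given with the product lists below. L_006321 (TraesCS1B01G004100, bases 2354576 to 2357674 of 1B_part1) is named an SnTox1 sensitivity protein, after the wheat receptor that responds to the SnTox1 toxin of a necrotrophic fungus. The list was made by words in product names, and this name states sensitivity, not resistance. L_006321 had 0, 0, 0.0751 and 0 FPKM in TAM112 and 1.96, 3.53, 2.99 and 2.63 FPKM in TAM111 (-1.87 ± 0.19, adjusted p = 0.0097). L_111303 (TraesCS7B01G459600, bases 263508762 to 263526409 of 7B_part2), a disease resistance protein RF9, had 0, 0, 0.0607 and 0 FPKM in TAM112, against 2.03 and 2.11 FPKM at HD and 17.2 and 8.25 FPKM at GF in TAM111 (-2.64 ± 0.43, adjusted p = 0.0487). Both were near 0 in every TAM112 dry library. L_120050 (TraesCSU01G177000), an RPM1-like protein on an unplaced sequence, was expressed in both cultivars, with 3.85, 5.73, 6.41 and 5.58 FPKM in TAM112 and 17.7, 17.8, 26.9 and 26.2 FPKM in TAM111 (-1.85 ± 0.17, adjusted p = 0.0068). In wet leaves the difference at this locus was -2.60 ± 0.29 (adjusted p = 0.0407).

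Metabolic and regulatory products were also called lower. L_075646 (TraesCS5B01G017900, 5B_part1), a phytoene synthase 2, which makes the first carotenoid precursor, had 5.79 and 4.99 FPKM at HD and 0.466 and 1.81 FPKM at GF in TAM112, against 13.4 and 38.04 FPKM at HD and 15.2 and 17.2 FPKM at GF in TAM111. The lowest TAM111 library was more than 2-fold above the highest TAM112 library (-2.49 ± 0.40, adjusted p = 0.0465). L_068038 (5A_part1), an obtusifoliol 14-alpha demethylase of sterol synthesis, had 0, 0.172, 0.299 and 0.197 FPKM in TAM112, against 2.45, 1.42, 3.58 and 2.84 FPKM in TAM111 (-1.58 ± 0.20, adjusted p = 0.0191). L_053792 (TraesCS3D01G540600, 3D_part2), a Myb-related protein, differed least, with 3.42 to 4.33 FPKM in TAM112 and 7.48 to 10.6 FPKM in TAM111 (-1.05 ± 0.17, adjusted p = 0.0453). L_076744, an early light-inducible protein of the thylakoid, was called although its groups overlapped by 1 pair of libraries (2.73, 1.36, 0.702 and 0.795 FPKM in TAM112, and 7.15, 7.36, 5.998 and 2.68 FPKM in TAM111).

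**Figure D2:**
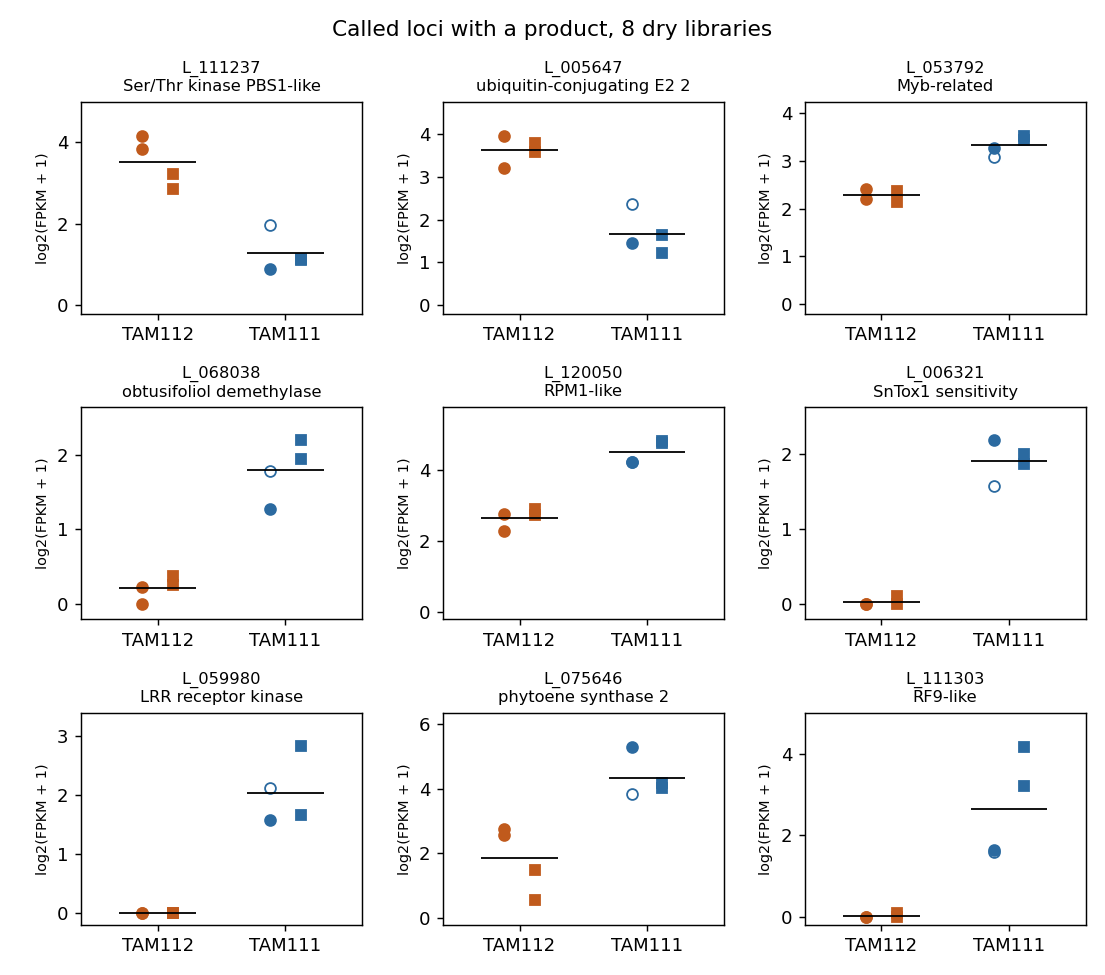
Levels of the 9 called loci with a product and no overlap between cultivars, as log2(FPKM + 1) on the vertical axis, in 4 TAM112 (orange, left) and 4 TAM111 (blue, right) dry libraries. Circles are HD, squares GF, the open circle is TAM111 HD replicate 1 (covered by another point in the RPM1-like and RF9 panels) and lines are means of 4 libraries; in 2 panels TAM112 is the higher cultivar and in 7 panels the lower one.

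Without TAM111 HD replicate 1, 252 of all 38121 loci were called higher and 272 lower. Of the 546 with a product, 27 were called in that fit, 17 higher and 10 lower. The 9 loci without overlap were among them, and L_076744 was not (adjusted p = 0.0724). Several further products of pathogen recognition were among them, a choice made after the values were seen. L_016928 (disease resistance protein RGA3) had 5.81, 6.59, 5.27 and 6.36 FPKM in TAM112, against 2.97 FPKM in TAM111 HD replicate 1 and 0 in the other TAM111 dry libraries. L_015345 (disease resistance protein At1g50180), an ambiguous locus, had 14.1, 11.6, 25.5 and 17.6 FPKM in TAM112, against 6.18 FPKM in TAM111 HD replicate 1 and 0 to 0.167 FPKM in the other TAM111 dry libraries. At both loci TAM111 HD replicate 1 lay between the TAM112 libraries and the other TAM111 libraries.

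Among called loci without overlap and not marked ambiguous, the 6 largest differences in each direction were at loci with no product in those tables. Of the 6 higher in TAM112, L_053991 (TraesCS4A01G025900, bases 17801078 to 17854535 of 4A_part1) had 15.9, 19.4, 28.3 and 22.8 FPKM in TAM112, against 3.35, 0, 0.388 and 0 FPKM in TAM111 (3.82 ± 0.48, adjusted p = 0.0194). L_106553 (TraesCS7A01G453400) had 9.17, 6.75, 46.2 and 18.5 FPKM in TAM112 and 0.921, 0, 0 and 0.281 FPKM in TAM111 (3.71 ± 0.49). L_001389 (TraesCS1A01G259100) had 18.0, 27.6, 36.9 and 29.1 FPKM in TAM112 and 5.40, 1.05, 1.38 and 0.639 FPKM in TAM111 (3.39 ± 0.44). In each of the 3, the first TAM111 value, from HD replicate 1, was the highest of its cultivar. L_006412 (TraesCS1B01G022800) was the most abundant, with 410, 444, 851 and 436 FPKM in TAM112 and 63.1, 39.4, 39.6 and 42.7 FPKM in TAM111 (3.46 ± 0.28). These values rested on 129, 124, 343 and 248 fragments in TAM112 and on 80.2, 52.8, 53.9 and 62.7 in TAM111. The contrast in fragments was thus smaller than that in FPKM. On the row with the reference name alone the difference at L_006412 was 0.35 (adjusted p = 0.777). In wet leaves it ranged from 24.6 to 608 FPKM in TAM112 and from 46.4 to 621 FPKM in TAM111. In wet TAM111 leaves, 591 FPKM rested on 209 fragments and 46.4 FPKM on 150.

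The 6 loci not marked ambiguous with the largest differences in the other direction were at or near 0 in TAM112. L_073070 (TraesCS5A01G384300, bases 128876685 to 128877143 of 5A_part2) was listed at 0 in all 8 TAM112 libraries, dry and wet, and had 13.4, 18.7, 26.5 and 21.3 FPKM in dry TAM111 leaves (-4.35 ± 0.20, adjusted p = 0.00035). L_061468 (TraesCS4B01G170600, 4B_part1) was likewise listed at 0 in all TAM112 libraries and had 13.2, 15.2, 17.0 and 42.9 FPKM in dry TAM111 leaves (-4.37 ± 0.31). L_096009 (6B_part2) was listed at 0 in TAM112 and had 23.1, 42.2, 5.67 and 24.95 FPKM in TAM111 (-4.37 ± 0.47). L_010509 (TraesCS1D01G034800, 1D_part1) had 0, 1.02, 0 and 1.2 FPKM in TAM112 and 26.0, 34.98, 70.1 and 54.4 FPKM in TAM111, the largest difference of all called loci (-4.93 ± 0.36, adjusted p = 0.0029). L_060171 reached 0.326 FPKM in 1 TAM112 library and had 11.9 to 38.6 FPKM in TAM111. L_024783 had 3.52 to 39.0 FPKM in TAM111 on 1 to 13 fragments a library, so its levels are imprecise.

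By a stricter rule, 9 loci were expressed in dry leaves of TAM112 only and 60 in dry leaves of TAM111 only (an FPKM of at least 1 in all 4 libraries of one cultivar and at most 0.1 in all 4 of the other). In wet leaves the same pattern held at 1 of the 9 and at 36 of the 60, and without TAM111 GF wet replicate 1 at 4 of the 9 and at 41 of the 60. Without TAM111 HD replicate 1 the numbers were 109 for TAM112 and 104 for TAM111. The TAM112 count also moved past 1.5 times without TAM112 HD replicate 1 (17) or 2 (23), TAM112 GF replicate 1 (16) or 2 (17), or TAM111 GF replicate 1 (16). L_074092 (TraesCS5B01G005900) had 12.7, 3.66, 4.41 and 8.82 FPKM in TAM112 and was listed at 0 in all 7 TAM111 libraries. L_095052 (TraesCS6B01G430700) had 4.68, 5.08, 12.4 and 24.7 FPKM in TAM112 and 0 in dry TAM111, but 3.19 FPKM in TAM111 GF wet replicate 1. L_029299 (TraesCS2D01G102500) had 4.79, 6.14, 31.8 and 4.21 FPKM in TAM112, which did not pass the test (3.20 ± 0.53, adjusted p = 0.0520).

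Some calls came in pairs on the same stretch. L_048863 and L_050709 overlap on 3D_part1 in the catalogue, and both were marked ambiguous because overlapping rows were assigned without strand. L_048863 had 9.59, 13.1, 11.3 and 16.2 FPKM in TAM112, against 0, 2.67, 0.148 and 0.404 FPKM in TAM111. L_050709 was listed at 0 in TAM112 and had 11.8, 7.08, 7.96 and 7.31 FPKM in TAM111. Each locus on its own was called, in opposite directions, while the stretch was expressed in both cultivars. In all, 16 of the 238 called loci were ambiguous in this way.

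Called loci were unevenly placed. On the second part of chromosome 1D, 15 of 258 loci were called (5.81%), all higher in TAM112, and 37 (14.3%) without TAM111 HD replicate 1. On the second part of 6D, 5 of 160 loci were called (3.13%), all lower. On 1A_part1 outside the left-out start, 10 of 635 were called (1.57%), 8 of them lower. Both parts of 6B had 12 calls each (1.54% and 1.55%), 23 of the 24 lower. In windows of 25 Mb with at least 20 loci tested, 388 of 530 windows had no call. The window with the highest share was 25 to 50 Mb of 1D_part2, where 14 of 107 loci were called (13.1%), between bases 32226060 and 42934422. The median difference over all 107 loci was 0.60. Next were 250 to 275 Mb of 7B_part2 with 6 of 68 (8.82%, 1 higher and 5 lower, among them L_111237 and L_111303) and 25 to 50 Mb of 6B_part1 with 5 of 57 (8.77%, all lower). The next window had 8.57%. Without TAM111 HD replicate 1, 36, 12 and 10 loci were called in the 1D, 7B and 6B windows (33.6%, 17.6% and 17.5%), where 524 of all 38121 loci were called. On 1A_part1, the only window of at least 20 loci with lower calls was 325 to 350 Mb, with 2. Its other lower calls lay between the left-out start and 225 Mb, where fewer than 20 loci were tested and no share was ranked.

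**Figure D3:**
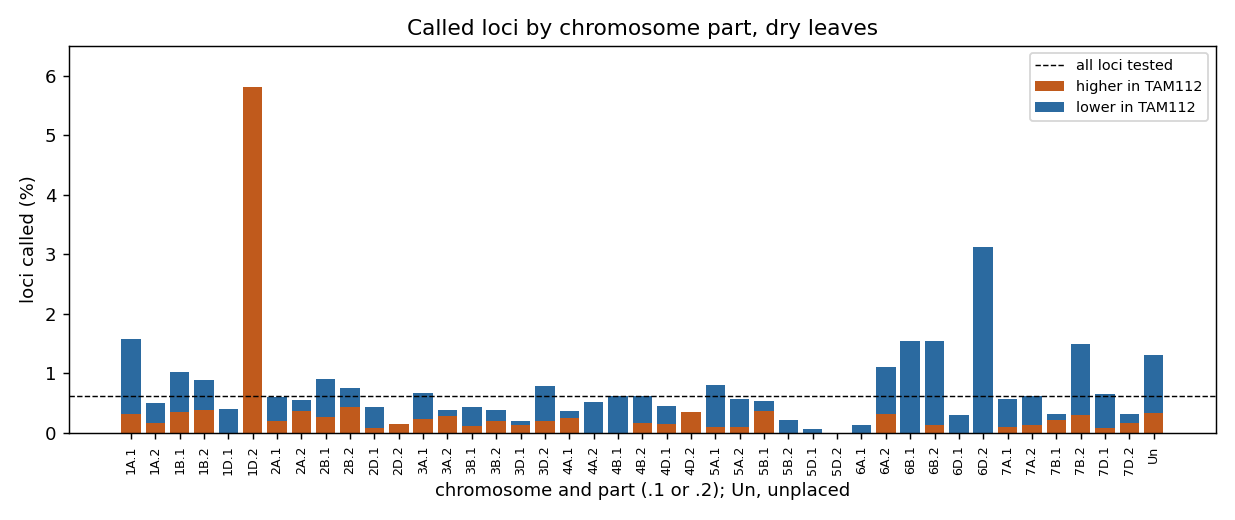
Share of tested loci called in dry leaves (percent, vertical axis) for each chromosome part and the unplaced sequence (horizontal axis), with calls higher in TAM112 in orange and lower in TAM112 in blue. The dashed line is the 0.624% over all loci, and the second part of 1D reaches 5.81%, all higher in TAM112.

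On 1D, L_014826 (TraesCS1D01G440500, bases 33834491 to 33835526) had 51.3, 49.6, 98.6 and 78.2 FPKM in TAM112, against 18.0, 2.74, 3.59 and 3.97 FPKM in TAM111 (3.41 ± 0.53, adjusted p = 0.0418). L_015304 (TraesCS1D01G454400) had 31.1, 43.4, 20.1 and 33.0 FPKM in TAM112 and 7.77, 0.807, 0.495 and 0.835 FPKM in TAM111 (3.63 ± 0.48). L_015301 (TraesCS1D01G453700) had 1.68, 3.30, 8.74 and 3.82 FPKM in TAM112 and was listed at 0 in dry TAM111 leaves. None of the 15 called loci on this part has a product in the tables, and TAM111 HD replicate 1 was the highest or tied for the highest of its cultivar at 14 of them. The ties were at L_014879 and L_015301, where every dry TAM111 library was listed at 0, so these loci do not set that library apart.

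The 7 wet libraries gave an independent reading. Of the 238 loci, 229 (96.2%) had the same sign in wet leaves, 68 of the 74 called higher and 161 of the 164 called lower, against 55.5% of all loci tested. At 184 of the 238 the wet difference had the same sign and an unadjusted p below 0.05, and at 67 it was called. In wet leaves 132 loci were called in all (0.346%). The median difference in wet leaves was 1.22 for the loci called higher and -1.81 for those called lower, against 1.88 and -2.04 in dry leaves. Without TAM111 GF wet replicate 1, the wet medians were 1.52 and -2.04, and 101 of the 238 were called.

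**Figure D4:**
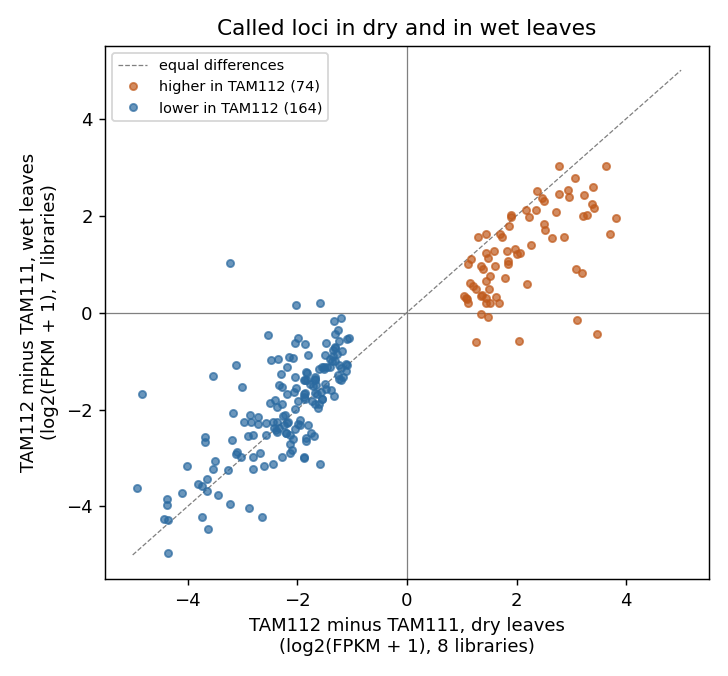
Difference between the cultivars in wet leaves (vertical axis, 7 libraries) against that in dry leaves (horizontal axis, 8 libraries) for the 238 loci called in dry leaves, both as TAM112 minus TAM111 on the log2(FPKM + 1) scale. Orange points are the 74 loci higher and blue points the 164 lower in TAM112; 229 points have the same sign on both axes, and the dashed line marks equal differences.

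For the 25 to 50 Mb window of 1D_part2, the median of the loci, each centred on its own mean over the wet libraries, was 0.20 to 0.31 in TAM112 wet libraries and -0.49 to -0.05 in TAM111 wet libraries. The groups did not overlap, and the difference of 0.57 had p = 0.0571 by an exact two-sided permutation test, the smallest p that 4 libraries against 3 can give. The window of 6B_part1 had a difference of -0.48 and that of 7B_part2 one of -0.11, each with the same exact p of 0.0571, so no window could pass 0.05 (the adjusted p over the 3 windows was 0.0571).

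By stage, 52 loci were called at HD (0.136%), 18 higher and 34 lower, and 112 at GF (0.294%), 38 higher and 74 lower. All 238 loci of the main comparison had the same sign at both stages, as did 21545 of all 38121 loci tested. The 238 were called on both stages of these same libraries together, so a shared sign was largely set by that choice. The HD count ranged from 20 (without TAM112 HD replicate 1) to 112 (without TAM111 HD replicate 1), and the GF count from 9 (without TAM112 HD replicate 1, TAM112 HD replicate 2 or TAM111 GF replicate 2) to 228 (without TAM111 HD replicate 1 or 2). The difference between the cultivars changed with stage at 11 loci (0.0289%), with 2115 at an unadjusted p below 0.05, and 8 of the 11 were ambiguous. Of the other 3, L_092540 (TraesCS6B01G005800) had 915 and 703 FPKM in TAM112 at HD and at most 0.287 FPKM in each other dry library. The 2 high values rested on 11.1 and 9.27 fragments, and each other dry library on at most 1, a far smaller contrast than in FPKM. L_115574 (TraesCS7D01G137500) had 10.1 and 12.2 FPKM at HD and 0 at GF in TAM112, against 12.1 and 15.8 FPKM at HD and 15.3 and 15.3 FPKM at GF in TAM111. These values rested on 20.9 to 43.9 fragments in the dry libraries where it was detected. L_095659 had 10.3 and 10.98 FPKM in TAM112 at HD on about 1 fragment each and was listed at 0 in the other dry libraries.

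The difference between the cultivars depended on treatment at 13 loci (0.0341%), 10 with a larger and 3 with a smaller TAM112 minus TAM111 difference in dry than in wet leaves, and 2320 had an unadjusted p below 0.05. The count was 24 without TAM111 HD dry replicate 1 and TAM111 GF wet replicate 1. Only 2 of the 13 were among the 238. L_057921 rested on about 2 fragments in each TAM112 HD dry library and 3 in the single TAM111 HD wet library. L_032007 (TraesCS2D01G242500) had 4.03, 2.92, 3.45 and 3.06 FPKM in dry TAM112 leaves and 2.36, 1.52, 1.71 and 0.857 FPKM in dry TAM111 leaves. Its interaction was 2.87 (adjusted p = 0.0107). The single TAM111 HD wet library had 85.9 FPKM on 6.49 fragments. Every other wet library had 1.76 to 4.11 FPKM on 7 to 14.7 fragments, so the high value did not rest on more fragments. A single locus with a product was among the 13 and was chosen for naming after its values were seen. L_036514, a DnaJ 6-like chaperone partner of HSP70 proteins, had 79.2, 88.1, 77.6 and 55.6 FPKM in dry TAM112 and 17.6, 29.8, 33.8 and 34.0 FPKM in dry TAM111. Its dry difference did not pass the limma test (1.38 ± 0.26, adjusted p = 0.0779). In wet leaves it had 0.353 to 22.1 FPKM in TAM112 and 5.72 to 23.3 FPKM in TAM111 (interaction 2.65, adjusted p = 0.0410). The wet TAM112 values at GF, 0.353 and 0.886 FPKM, rested on 1 and 1.99 fragments.

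Lists of drought protection proteins are described by their medians, since with 0.624% of all loci called a short list without a call is near the background share. None of the 13 dehydrins tested was called, 11 of 13 had a positive difference, and their median was 0.83, against 0.01 over all loci. Dehydrins coat membranes and proteins in dehydrated cells. Their summed level was 1000 and 255 FPKM at HD and 2113 and 2267 FPKM at GF in TAM112, against 186 and 343 FPKM at HD and 1483 and 950 FPKM at GF in TAM111. The cultivars overlapped at HD and did not overlap at GF. L_094799 (dehydrin 4, TraesCS6B01G383500) had 40.4 and 3.57 FPKM at HD and 175 and 104 FPKM at GF in TAM112, against 0.805 and 4.19 FPKM at HD and 29.9 and 15.5 FPKM at GF in TAM111. Its difference of 2.38 ± 0.68 did not pass the test (adjusted p = 0.229).

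Of 37 small heat shock proteins, chaperones that bind unfolding proteins, none was called and 33 had a positive difference. Without TAM111 HD replicate 1, L_113874, a 26.2 kDa mitochondrial-like member, was called higher (4.43, adjusted p = 0.0115). It had 12.5 to 59.0 FPKM in dry TAM112, against 8.70 FPKM in TAM111 HD replicate 1 and 0 to 0.438 FPKM in the other dry TAM111 libraries. In wet leaves L_113874 had 8.10 to 22.6 FPKM in TAM112 and 1.61 to 6.68 FPKM in TAM111. The median of the list difference was 1.70 at HD and -0.01 at GF. At HD they summed to 790 and 431 FPKM in TAM112 and to 131 and 190 FPKM in TAM111, and at GF to 191 and 265 FPKM in TAM112 and to 282 and 144 FPKM in TAM111. The groups were apart at HD and overlapped at GF, and no single member passed the test of a stage difference. L_065079, a 17.9 kDa class I protein, came nearest (GF minus HD -2.79, adjusted p = 0.187). Of the other protective groups, LEA proteins had a median of 0.79 (10 of 13 positive), large chaperones 0.56 (17 of 19), redox proteins 0.54 (22 of 25), raffinose family enzymes 0.51 (4 of 4), proline metabolism 0.42 (7 of 9), heat stress transcription factors 0.38 (9 of 10) and abscisic acid proteins 0.29 (21 of 23), with no call in any of them. Over all 546 loci with a product the median was 0.29, and 356 were positive. The lists hold loci that the study selected on these samples, and near-identical copies within a list can share reads.

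Disease resistance proteins had a median of 0.08, and their 3 calls of 18 became 5 higher and 3 lower without TAM111 HD replicate 1. Without that library, 252 of all 38121 loci were called higher and 272 lower. Other receptor kinases had a median of 0.00 with 1 of 43 called lower, and without that library 2 were called higher and 1 lower. Other transcription factors had a median of 0.34 with 1 of 20 called lower. Wall-associated kinases had a median of -0.21 with no call (1 higher without that library), photosynthesis and chloroplast proteins -0.13 (3 of 15 positive), aquaporins -0.28 and early light-inducible proteins -0.33 with 1 of 6 called lower. Photosynthesis loci had a median of 0.20 at HD and -0.35 at GF. Cytochromes P450 and ABC transporters had medians of 0.26 with no call.

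**Figure D5:**
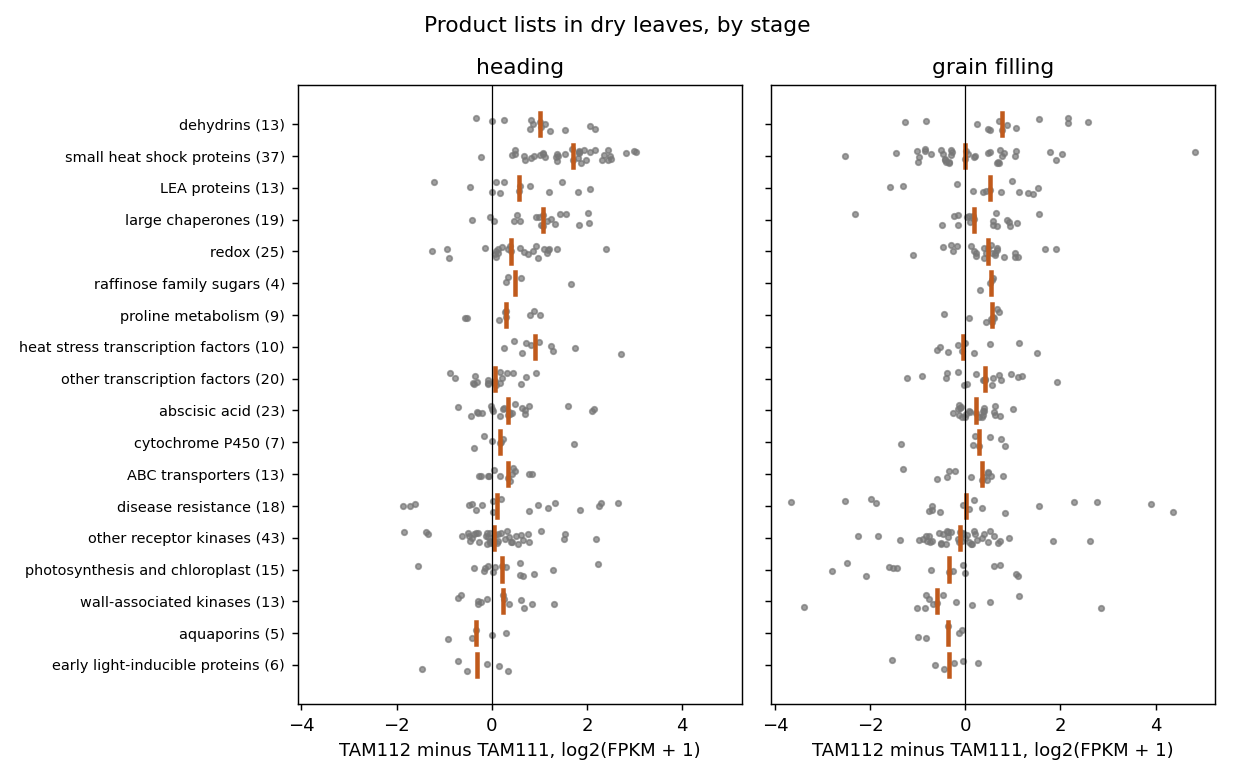
Difference between the cultivars (TAM112 minus TAM111, log2(FPKM + 1), horizontal axis) in dry leaves at heading and at grain filling for every tested member of the 18 product lists (rows, number tested in brackets). Grey points are loci and orange bars list medians, which for small heat shock proteins are 1.70 at heading and -0.01 at grain filling.

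A further list held loci with RT-qPCR assays. Of its 9 members, 8 could be tested, and none of these was called between the cultivars. L_049806, a delta-1-pyrroline-5-carboxylate synthase of proline synthesis, had 72.2 and 21.1 FPKM at HD and 366 and 293 FPKM at GF in TAM112, against 16.7 and 29.1 FPKM at HD and 232 and 198 FPKM at GF in TAM111 (0.71 ± 0.37, adjusted p = 0.519). L_044222, a sucrose synthase 3, which cleaves sucrose, had 20.8, 7.68, 68.6 and 48.6 FPKM in TAM112 and 4.95, 18.2, 34.2 and 28.6 FPKM in TAM111 (0.61 ± 0.43). L_057461, a sucrose:fructan 6-fructosyltransferase of fructan synthesis, had 18.5, 26.0, 8.76 and 3.36 FPKM in TAM112 and 34.8, 29.2, 10.7 and 25.4 FPKM in TAM111 (-0.98 ± 0.37). The cultivars overlapped at each. The NAC transcription factor L_070049 (1.004 ± 0.49), the pyruvate dehydrogenase subunit L_102286 (0.51 ± 0.26), the sugar transporter L_054218 (0.47 ± 0.20) and the wall-associated kinase L_074394 (-0.21 ± 0.29) did not pass either, with adjusted p between 0.432 and 0.824. The dehydrin 3 locus L_100237 had no value of its own, because every row over it was assigned to L_098330, an overlapping locus on the other strand that carries the same gene name. L_098330, named after its values were seen, had 363 and 112 FPKM at HD and 785 and 858 FPKM at GF in TAM112, against 69.2 and 125 FPKM at HD and 655 and 387 FPKM at GF in TAM111 (0.91 ± 0.39, adjusted p = 0.430).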

How the data were processed

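Flag leaf mRNA was sequenced by the authors from TruSeq v2 libraries, a kit that does not mark strand, and reads were trimmed with Trimmomatic 0.38, aligned with TopHat2 to IWGSC RefSeq v1.0 and assembled per library with Cufflinks. FPKM values with confidence bounds were deposited per library, together with the merged Cuffmerge catalogue of 122017 loci. Positions are those of the chromosome parts of that build. Each FPKM row was assigned with bedtools 2.31.1 to a locus, by reference name first and otherwise by the largest overlap, and rows were summed. Loci are marked ambiguous where an overlapping row went to another locus. The 38121 tested loci are among 110167 with a gene name, with an FPKM of at least 1 in 2 dry libraries, outside the first 200000000 bases of 1A_part1. Values were tested as log2(FPKM + 1) with limma 3.58.1 in R 4.3.3 (mean-variance trend, stage as a block, 5 residual degrees of freedom), with Benjamini-Hochberg adjustment over all loci tested. Folds on this scale understate changes of low loci. Because rows were assembled per library, FPKM and fragments at a locus need not change in proportion. Stage contrasts used 4 group means of the dry libraries, the treatment interaction 8 group means of 15 libraries, and wet leaves the stage block. All 631 gene IDs in the product tables that carry one matched the catalogue. Loci were named where they had a product and were called without overlap, were among the 6 largest or smallest differences, were measured by RT-qPCR, were among the 3 largest or smallest interactions, or were among the 4 most abundant loci of one cultivar only. Fragments behind a value were implied by its confidence bound, and counts below 10 were within 0.1 of a whole number for 84.4% to 85.9% of reference rows. On simulated data, 68% of loci changed by 2 on the log2 scale were recovered over the 38121 loci of the dry comparison. Each library pools flag leaves of 4 plants of one replicate, so p-values measure the spread between such pools. The members and lists were chosen with earlier results of these data known. Alternatives were another pseudocount, other filters, median-ratio and quantile scaling, other designs, other row assignments and leaving out single libraries.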

Additional observations from a re-analysis of the deposited data

Results flagged for a closer look

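Of 48 groups of 4 dry libraries tested for a single library far from the others, 12 had one. Chance gives about 1 in 20 for a group picked without regard to its values. Here the groups share the 8 dry libraries, mix 2 stages and include loci picked for large differences, so 12 of 48 cannot be set against that rate. In TAM111, the far library was HD replicate 1 at L_001389 (5.40 FPKM), L_014826 (18.0 FPKM), L_006412 (63.1 FPKM), L_015304 (7.77 FPKM) and L_053991 (3.35 FPKM), and in the share of loci of TAM112 only that reached an FPKM of 1 (43.8%). These 6 values lay above those of the other TAM111 libraries. L_075646 was far higher in TAM111 HD replicate 2 (38.04 FPKM) and L_061468 in TAM111 GF replicate 2 (42.9 FPKM). In TAM112, GF replicate 1 stood apart at L_006321 (0.0751 FPKM), L_111303 (0.0607 FPKM) and L_006412 (851 FPKM), and GF replicate 2 at L_060171 (0.326 FPKM). At L_006321, L_111303 and L_060171 all other TAM112 dry libraries were listed at 0, and the far value rested on 1, 0.387 and 0.6 fragments.

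The cultivar difference at GF minus that at HD passed the limma test of the difference itself at L_092540 (-9.28), L_115574 (-3.73) and L_095659 (-3.54) on the log2(FPKM + 1) scale. The cultivar difference in dry minus in wet leaves passed at L_092540 (4.48), L_057921 (3.04), L_032007 (2.87) and L_115574 (-3.06). L_092540, L_095659, L_057921 and the single high wet library of L_032007 rest on few fragments. At L_032007 every other wet library had more fragments than that high one. At L_115574 each wet library rested on at most 1 fragment.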

How the results depend on the processing

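The counts of calls kept within 1.5 times of 74 higher and 164 lower under a pseudocount of 0.1 (50 and 169), an FPKM of 1 in 4 libraries (87 and 176), median-ratio scaling (71 and 168), quantile normalization (69 and 166), no mean-variance trend (77 and 172), no stage block (55 and 136) and without ambiguous loci (80 and 165). Without a filter, 39 loci were called higher, the stage interaction had 6 loci and the treatment interaction 59. The fit to all 15 libraries called 225 higher and 316 lower, 98 at HD and 383 at GF, with 21 stage interactions. Rows with the reference name alone gave 23 higher and 26 lower and 35 loci of TAM112 only, and there L_111237 turned to -0.41. Without ambiguous loci, 29 were called at HD and 1 stage interaction was left. With the start of chromosome 1A kept, 123 were higher and 381 lower, and 165 of the 374 loci there were lower. The cause of these changes was not tested.

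With the replicate number as a block, 4 loci were called higher and 26 lower, all among the 238, 18 at HD and 14 at GF, with 4 stage interactions. The study describes replicates that each held both cultivars, but which replicate a library number stands for is not given in the sources used here, and deviations of same-numbered libraries did not correlate (-0.01 and 0.07).

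Leaving out 1 library at a time gave 5 to 252 loci higher, 37 to 272 lower, 20 to 112 at HD, 9 to 228 at GF, 4 to 16 stage interactions, 14 to 29 treatment interactions, 10 to 109 loci of TAM112 only and 65 to 104 of TAM111 only. The highest counts of loci higher or lower and of loci of one cultivar only came without TAM111 HD dry replicate 1. Leaving out 2 TAM111 libraries gave 24 treatment interactions. The wet reading of TAM111 at HD rests on 1 library.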
